A study of Mus musculus with 6 samples.

Results

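The myeloid C-type lectin receptors are a group of 10 surface receptor genes, Clec7a, Clec4d, Clec4e, Clec4n, Clec5a, Clec12a, Clec10a, Clec4a1, Clec4a2 and Clec4a3, which were followed in mouse H22 tumours. They were taken by gene symbol from the 21720 symbols of the expression table, and all 10 were listed there and passed the filter on low counts. H22, a mouse hepatocellular carcinoma line, was grown under the skin of wild-type BALB/c mice (females of 6 to 8 weeks per the study's methods), so that the tumours did not lie in the liver. The control group of 3 libraries received 0.5% carboxymethyl cellulose sodium by gavage, and the luteolin group of 3 libraries received 200 mg/kg of luteolin, a plant flavonoid, both in 0.2 mL once a day for 21 days from a tumour volume of about 50 mm3. The labels do not say that each library came from a separate animal, so the p values measure the spread between these libraries, part of which may be technical.

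C-type lectin receptors of myeloid cells bind sugars and lipids of microbes and molecules set free by damaged cells. The activating receptors signal through the kinase Syk and the adaptor Card9, either with a tyrosine motif of their own (dectin-1, the product of Clec7a) or through the adaptor chains encoded by Fcer1g and Tyrobp. The inhibitory receptors carry a motif that recruits phosphatases. Macrophages, monocytes, neutrophils and dendritic cells express these genes in differing proportions, and in RNA of a whole tumour more cells that carry a receptor and more of its RNA per cell cannot be told apart.

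Total estimated counts ranged from 61081637 to 80442954 per library, and the 10 receptor genes had between 58 and 4701 counts in a library, and none was at 0. Marker genes of myeloid and other cells were described beside the receptor genes. Their summed levels cannot show which cells carried the receptor genes. All 9 macrophage markers were tested, and their summed level was 1740 to 2102 CPM (counts scaled to a common, normalised library size) in the control group and 2028 to 3429 CPM in the luteolin group. The summed level was 46.4 to 52.8 and 136 to 229 CPM for 10 neutrophil markers, 163 to 330 and 264 to 891 CPM for 6 monocyte markers (the highest in luteolin replicate 3, where Chil3 had 37078 counts against 874 and 492 in luteolin replicates 1 and 2), and 126 to 136 and 193 to 294 CPM for 6 dendritic cell markers. Ly6g, which defines mature neutrophils, stayed at 36 counts or fewer in every library. It had 13, 36 and 12 counts in control replicates 1, 2 and 3 and 0, 9 and 33 in the luteolin replicates. Its log2 fold change was -0.57 (edgeR adjusted p = 0.86). Ngp and Camp were at 0 in every control library. In luteolin replicates 1, 2 and 3, Ngp had 4, 0 and 544 counts and Camp 0, 7 and 100, so that most came from replicate 3. Luteolin replicate 2 stood apart by skin genes: the summed level of 10 keratinocyte markers was 9245 CPM there, against 401 and 20.9 CPM in luteolin replicates 1 and 3 and 14.01 to 18.9 CPM in the control group, where Krt5, Krt14, Krt1, Dsg3 and Krtdap were at 0. Summed levels in the control and luteolin groups were 10.5 to 13.6 and 39.8 to 74.7 CPM for T-cell markers, 2.52 to 4.71 and 6.63 to 23.8 CPM for B-cell markers, 0.773 to 1.81 and 4.86 to 6.14 CPM for NK-cell markers (Klra8 at 0 throughout), 3.43 to 10.3 and 21.6 to 79.1 CPM for mast cell markers, and 440 to 535 and 444 to 587 CPM for hepatoma markers. The part of these cells in the results was not tested.

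The genes lie close together in the genome. In the RefSeq annotation of GRCm38.p6, 9 of the 10 are on chromosome 6, where Clec4n, Clec4d and Clec4e follow each other directly, Clec4a1 and Clec4a3 are neighbours, and Clec10a is on chromosome 11 beside its relative Mgl2. Start site sequences were found for 8 of the 10 genes. Those of 5 genes are shown, 4 that were up-regulated and hold a short motif and 1 that did not pass and lacks it. The letters GAGGAA, read on either strand, form the core of the site bound by PU.1, a transcription factor of myeloid cells. They occurred in the 250 bases before at least 1 start site for 7 of the 8 receptor genes, and for 25.9% of all 27025 genes with such a window. The windows of Clec4e, Clec4d, Clec12a, Clec4a1 and Clec4a2 read as follows, 5′ to 3′ on the strand of the gene, with GAGGAA or its reverse complement TTCCTC in capitals.
Clec4e (GRCm38.p6, chr6:123289872-123290121, minus strand): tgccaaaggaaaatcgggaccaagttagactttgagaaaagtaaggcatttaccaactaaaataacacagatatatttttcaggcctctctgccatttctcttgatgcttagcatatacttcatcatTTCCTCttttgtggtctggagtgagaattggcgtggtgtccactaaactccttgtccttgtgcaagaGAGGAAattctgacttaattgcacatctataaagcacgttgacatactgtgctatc
Clec4d (GRCm38.p6, chr6:123261857-123262106, plus strand): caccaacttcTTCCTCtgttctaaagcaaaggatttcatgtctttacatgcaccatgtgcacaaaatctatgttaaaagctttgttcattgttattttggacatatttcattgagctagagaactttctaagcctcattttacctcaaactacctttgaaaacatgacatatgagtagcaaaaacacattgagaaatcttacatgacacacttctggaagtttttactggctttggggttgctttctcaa
Clec12a (GRCm38.p6, chr6:129349994-129350243, plus strand): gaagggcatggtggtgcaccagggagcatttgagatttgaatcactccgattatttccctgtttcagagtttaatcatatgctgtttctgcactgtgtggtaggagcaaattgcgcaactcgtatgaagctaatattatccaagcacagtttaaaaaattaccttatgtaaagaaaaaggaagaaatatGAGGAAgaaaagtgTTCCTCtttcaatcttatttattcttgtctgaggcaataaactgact
Clec4a1 (GRCm38.p6, chr6:122921598-122921847, plus strand): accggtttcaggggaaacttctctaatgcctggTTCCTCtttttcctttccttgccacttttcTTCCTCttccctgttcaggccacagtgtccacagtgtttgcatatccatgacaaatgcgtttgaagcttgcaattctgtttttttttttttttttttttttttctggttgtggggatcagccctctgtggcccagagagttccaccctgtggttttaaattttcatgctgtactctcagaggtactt
Clec4a2 (GRCm38.p6, chr6:123122440-123122689, plus strand): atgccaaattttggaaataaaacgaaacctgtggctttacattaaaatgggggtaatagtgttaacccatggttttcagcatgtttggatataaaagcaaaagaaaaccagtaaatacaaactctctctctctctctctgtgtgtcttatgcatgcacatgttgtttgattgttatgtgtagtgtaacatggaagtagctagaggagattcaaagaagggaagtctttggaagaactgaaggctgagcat
The motif occurs 2 times in the windows of Clec4e, Clec12a and Clec4a1 and 1 time in that of Clec4d, and Clec4a2 is the gene without it. Among the genes not shown, Clec5a did not pass the study's threshold and holds the motif 2 times. Up-regulated Clec7a holds it, and up-regulated Clec4a3 has a window with it and another without it. A relation between the motif and the calls was not tested. A match of letters is a description and not a binding site, and the motif was chosen after the sequences had been seen.

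All 10 receptor genes had a higher mean in the luteolin group, and 7 of the 10 were up-regulated by the study's rule (fold change over 2 and p under 0.05 before adjustment). Of all 14963 genes tested, 11.3% were up-regulated by the same rule. None of the 10 was down-regulated, against 1.52% of all genes, and Clec4n, Clec5a and Clec4a2 did not pass. At an adjusted p under 0.05, 2 of the 10 passed, Clec4d and Clec4e, against 1.34% of all genes that passed upward and 0.187% downward (quasi-likelihood test of edgeR, Benjamini-Hochberg adjustment). In 6 of the 10, each luteolin library lay above each control library, as in 15.8% of all genes, and in none did each luteolin library lie below each control library, as in 12.9% of all genes. The median log2 fold change was 1.34 over the 10 genes and -0.01 over all genes tested. Without luteolin replicate 2, 6 of the 10 passed the study's threshold, against 7.52% of all genes. Values below are given in the order of replicates 1, 2 and 3.

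**Figure D1:**
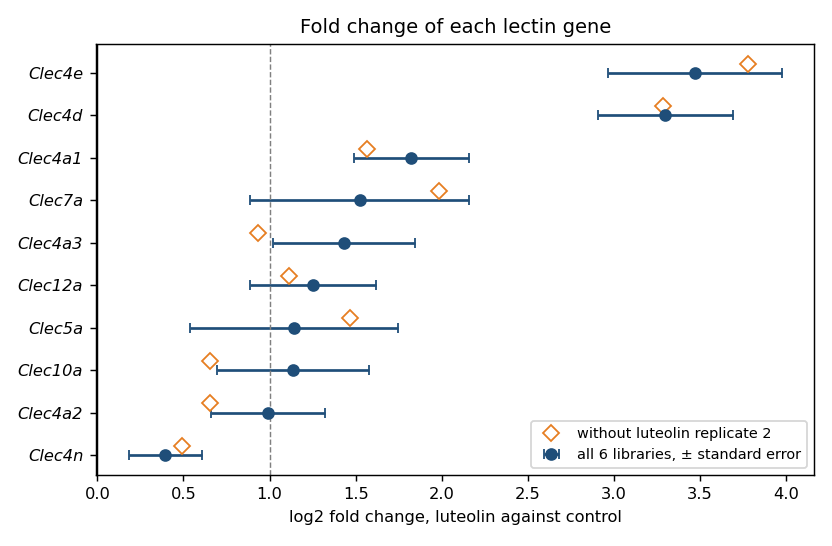
Log2 fold change of the 10 lectin genes, luteolin against control; filled points with bars are edgeR values with their standard error from all 6 libraries, open diamonds are the values without luteolin replicate 2, and the dashed line marks a log2 fold change of 1. Clec4e (3.47) and Clec4d (3.30) lie far to the right of the other genes, which range from 0.39 to 1.82.

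Clec4e and Clec4d changed most. Clec4e encodes Mincle, which binds mycobacterial glycolipids and the nuclear protein Sap130 released by dying cells, and Clec4d encodes its partner MCL. Both use the adaptor chain of Fcer1g. Clec4e had 21.9, 7.60 and 11.4 CPM in the luteolin libraries and 0.830, 1.498 and 1.36 CPM in the control libraries. The groups did not overlap, and the lowest luteolin library lay several times above the highest control library. Its log2 fold change was 3.47 (SE 0.50, edgeR adjusted p = 0.0366). Clec4d had 20.6, 17.3 and 12.0 CPM in the luteolin libraries and 1.19, 2.39 and 1.504 CPM in the control libraries. Again there was no overlap, and the luteolin libraries were closer to each other than for Clec4e. The log2 fold change of Clec4d was 3.30 (SE 0.39, edgeR adjusted p = 0.0331). These changes rest on few counts in the control group, 58 to 97 for Clec4e and 83 to 155 for Clec4d. With any 1 library left out, the log2 fold change stayed between 2.95 and 3.78 for Clec4e and between 3.06 and 3.61 for Clec4d, although 0 genes of the whole table reached an adjusted p under 0.05 without any 1 control library or without luteolin replicate 1.

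**Figure D2:**
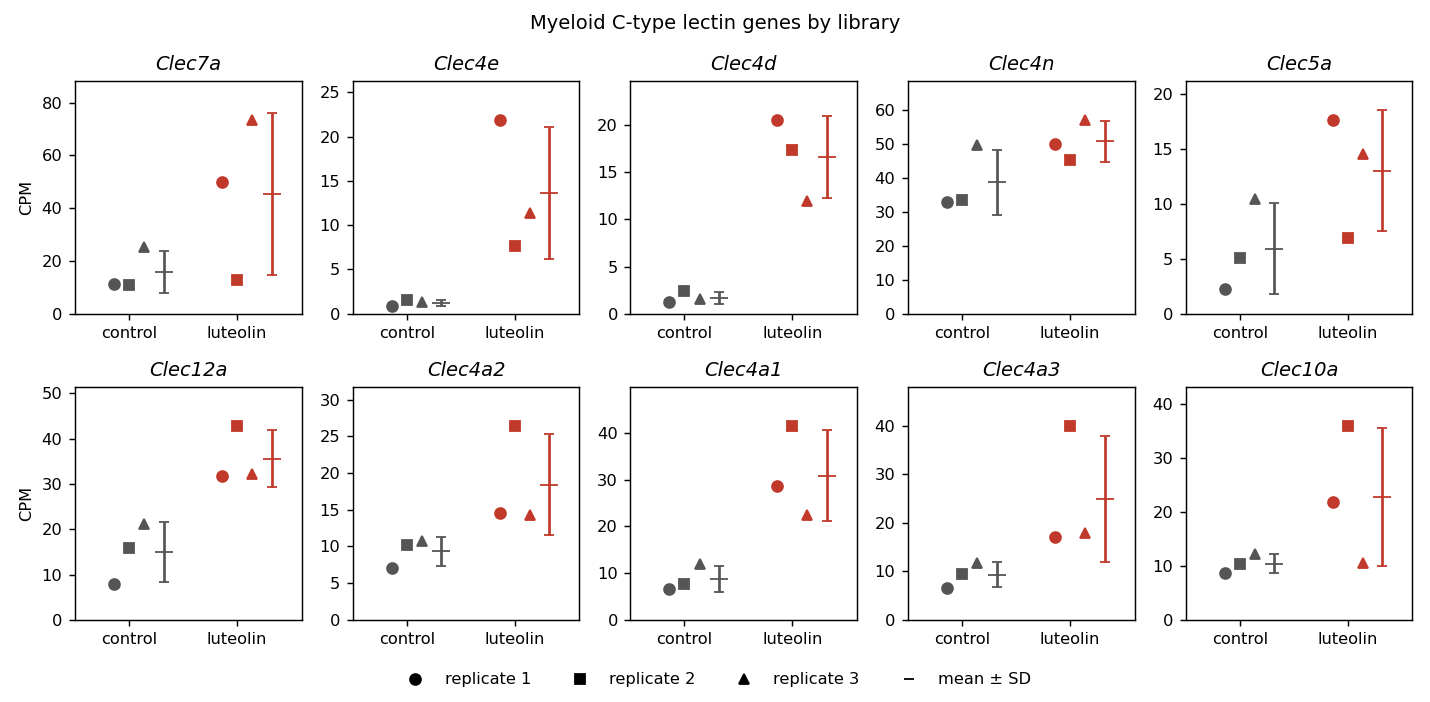
Level of each lectin gene in CPM (linear axis from 0, scaled for each gene), control libraries in grey and luteolin libraries in red; the symbol gives the replicate number, and the bar beside the points is the mean ± SD of 3 libraries. Clec4e and Clec4d show a clear gap between the groups, while Clec7a and Clec5a in luteolin replicate 2 and Clec10a in luteolin replicate 3 lie among the controls.

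Among the other activating receptors, Clec7a and Clec5a varied more, with larger standard errors than Clec4e and Clec4d. Clec7a encodes dectin-1, the receptor for fungal beta-glucan. It had 49.9, 12.8 and 73.5 CPM in the luteolin libraries and 11.3, 10.9 and 25.2 CPM in the control libraries. Luteolin replicates 1 and 3 were above all controls, but luteolin replicate 2 lay within the control range. Clec7a passed the study's threshold narrowly, with a log2 fold change of 1.52 (SE 0.64, edgeR adjusted p = 0.241), and the value was 1.99 without luteolin replicate 2. The call was lost without control replicate 1, control replicate 2, luteolin replicate 1 or luteolin replicate 3 (log2 fold changes of 1.34, 1.33, 1.45 and 0.98).

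Clec5a, which encodes the Tyrobp-linked receptor MDL-1, was also lowest in replicate 2 among the luteolin libraries, with 17.6, 6.89 and 14.5 CPM in the luteolin group and 2.22, 5.10 and 10.4 CPM in the control group. Luteolin replicate 2 again lay within the controls, which themselves spread widely. Its log2 fold change of 1.14 (SE 0.61, edgeR adjusted p = 0.348) did not pass the threshold. It passed without luteolin replicate 2 (1.47) and without control replicate 3 (1.83).

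Clec4n encodes dectin-2, a receptor for fungal mannans that also uses the Fcer1g chain. It had 50.0, 45.1 and 57.0 CPM in the luteolin libraries and 32.9, 33.5 and 49.6 CPM in the control libraries. Luteolin replicate 2 lay below control replicate 3. The log2 fold change was 0.39 (SE 0.21, edgeR adjusted p = 0.358), the smallest of the 10 genes, and Clec4n lies directly beside Clec4d.

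Among the inhibitory receptors, Clec12a encodes MICL, which recruits phosphatases and binds uric acid crystals. Clec12a had 31.6, 42.8 and 32.2 CPM in the luteolin libraries and 7.93, 15.9 and 21.1 CPM in the control libraries. The groups did not overlap. Its log2 fold change was 1.25 (SE 0.36, edgeR adjusted p = 0.133), and fell to 0.91 without control replicate 1, below the fold change threshold. Clec4a2 encodes the inhibitory receptor DCIR. It had 14.6, 26.4 and 14.3 CPM in the luteolin libraries and 7.04, 10.2 and 10.7 CPM in the control libraries, which did not overlap either. With a log2 fold change of 0.99 (SE 0.33, edgeR adjusted p = 0.170), Clec4a2 fell just short of a fold change of 2. The value was 0.65 without luteolin replicate 2 and 0.78 without control replicate 1. Clec4a2 passed the study's threshold without control replicate 2 or 3 (1.03 and 1.10) and without luteolin replicate 1 or 3 (1.13 and 1.08).

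Clec4a1 and Clec4a3 belong to the same group of DCIR-like receptors. Clec4a1 had 28.5, 41.5 and 22.5 CPM in the luteolin group and 6.58, 7.75 and 11.9 CPM in the control group. Each luteolin library was well above each control library. The log2 fold change was 1.82 (SE 0.34, edgeR adjusted p = 0.0547), the third largest of the 10 and just short of an adjusted p of 0.05. Clec4a3 had 17.1, 39.98 and 17.8 CPM against 6.61, 9.42 and 11.8 CPM. Luteolin replicate 2 stood far above the other luteolin libraries, and the groups did not overlap. Its log2 fold change of 1.43 (SE 0.41, edgeR adjusted p = 0.129) was 0.93 without luteolin replicate 2, under the fold change threshold.

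Clec10a encodes MGL1, a receptor for galactose and N-acetylgalactosamine on macrophages and dendritic cells. It had 21.8, 35.9 and 10.5 CPM in the luteolin libraries and 8.63, 10.3 and 12.2 CPM in the control libraries. Luteolin replicate 3 lay within the control range. The log2 fold change was 1.14 (SE 0.44, edgeR adjusted p = 0.211), and without luteolin replicate 2 it was 0.66 and did not pass. The call was also lost without control replicate 1, 2 or 3 (0.97, 1.09 and 1.27) and without luteolin replicate 1 (1.17), where the fold change was of similar size and p exceeded 0.05. The neighbouring gene Mgl2, which encodes the related receptor MGL2, changed in the opposite direction, with a mean ± SD of 79.9 ± 3.78 CPM in the controls and 31.98 ± 22.4 CPM under luteolin (3 libraries each). Its log2 fold change was -1.32 (SE 0.45, edgeR adjusted p = 0.172). Of the 3181 windows of 50 bases in Clec10a transcripts of GENCODE M21, 287 (9.02%) occur in a transcript of another gene, 270 of them in Mgl2. Whether the counting split reads between these genes was not tested. For Clec4a2 the share was 6.83%, with Clec4a4 as the closest gene, and for the other 8 receptor genes it was at most 0.69%.

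Among the luteolin libraries, the 10 genes fell into differing orders. Replicate 1 had the highest level for 3 genes (Clec4d, Clec4e and Clec5a), replicate 2 for 5 (Clec12a, Clec10a, Clec4a1, Clec4a2 and Clec4a3) and replicate 3 for 2 (Clec7a and Clec4n). Relative to the mean of luteolin replicates 1 and 3, replicate 2 was higher by 1.25 on the log2 CPM scale for Clec10a, 1.196 for Clec4a3, 0.87 for Clec4a2, 0.71 for Clec4a1, 0.42 for Clec12a and 0.14 for Clec4d. It was lower for the remaining genes, with differences of -2.24 for Clec7a, -1.21 for Clec5a, -1.05 for Clec4e and -0.24 for Clec4n. Replicate 2 is also the library with the most keratinocyte RNA and the highest macrophage marker sum, and the part of either in these orders was not tested.

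**Figure D3:**
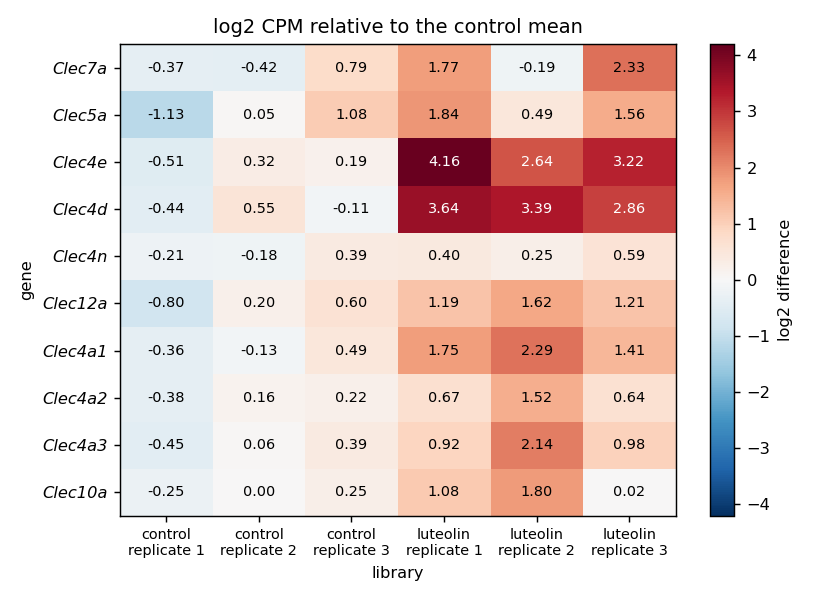
Difference in log2 CPM (prior count 2) between each library (columns) and the mean of the control libraries for each lectin gene (rows), red for higher and blue for lower. Clec7a reaches 1.77 and 2.33 in luteolin replicates 1 and 3 and -0.19 in replicate 2, while Clec10a reaches 1.80 in replicate 2 and 0.02 in replicate 3.

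The likeness of 2 genes was measured as the root mean square difference between their centred log2 CPM over the 6 libraries. Clec4a2 and Clec4a3 were most alike (0.24), followed by Clec12a and Clec4a3 (0.31) and by Clec4a1 and Clec4a3 (0.32). Clec4e and Clec4n, which are separated only by Clec4d on chromosome 6, were least alike (1.55). Of all other genes tested, those closest to the mean pattern of the 10 were Gm43302 (0.06), Bst1 (0.11), C130026I21Rik (0.13), Trim12c (0.13) and Oasl2 (0.14). Bst1 encodes an ectoenzyme of myeloid and stromal cells, and Oasl2 is an interferon-induced gene. Bst1 had 37.2, 33.3 and 29.7 CPM in the luteolin libraries and 8.01, 10.4 and 12.2 CPM in the control libraries.

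Levels of different genes were compared per kilobase of exon (exon lengths of GENCODE M21). These lengths cover the annotated exons of a gene, such as 4965 bases for Clec4e, 5528 for Clec12a and 1599 for Clec4d. The length of the transcripts present in the tumours was not tested, so the order of genes depends on this divisor. In the control group, Clec4n stood first with 27.2 ± 6.68 CPM per kilobase (SD, n = 3), and each of its libraries lay above each library of the next gene. Clec4a3, Clec7a and Clec4a1 followed with 6.99, 5.995 and 5.61, with overlapping ranges. Clec10a (3.58), Clec4a2 (3.19), Clec12a (2.71), Clec5a (1.54) and Clec4d (1.06) came next, and each overlapped the next gene in this order. Clec4e was last with 0.248 ± 0.0712, below every library of Clec4d. In the luteolin group Clec4n was still first with 35.7 ± 4.23, and Clec4e was still last with 2.75 ± 1.49, now overlapping Clec5a. Clec4d had moved from the ninth to the fifth place, with 10.4 ± 2.71 CPM per kilobase. By mean CPM without division by length, Clec4n was also highest in both groups and Clec4e lowest in the control group. In the luteolin group the mean CPM of Clec4e lay above that of Clec5a, so its last place there rests on the exon lengths.

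As a share of the summed level per kilobase of the 10 genes, Clec4n made up 51.5%, 44.6% and 45.6% in the control libraries and 28.1%, 23.2% and 32.4% in the luteolin libraries. Clec4d made up 1.65%, 2.83% and 1.23% of it in the control group and 10.3%, 7.93% and 6.05% in the luteolin group. These shares did not overlap between the groups. Clec12a kept overlapping shares of 3.19% to 5.45% in the control group and 4.56% to 5.66% in the luteolin group. The sum itself was 45.0 to 76.6 CPM per kilobase in the control group and 124 to 137 in the luteolin group. Both the shares and the sum depend on the same exon lengths.

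Each receptor gene was then set against the summed markers of the cells known to carry such receptors. Relative to the macrophage markers, the log2 level of Clec4e was higher in the luteolin group by 2.82, of Clec4d by 2.78 and of Clec4a1 by 1.30 (exact two-sided permutation tests, p = 0.1 for each, the smallest that 3 libraries against 3 allow, and 0.333 after Benjamini-Hochberg adjustment over 10 tests). These groups did not overlap. For the other 7 genes the groups overlapped, with differences from -0.11 for Clec4n to 0.83 for Clec4a3 and exact permutation p from 0.2 to 0.8. The macrophage sum rests mostly on Lyz2, with a mean of 1046 CPM in the control group and a log2 fold change of 0.23. The largest log2 fold change among the macrophage markers was 1.36 for Fcgr1, against 1.82 for Clec4a1. Relative to Fcgr1 alone, the excess of Clec4a1 is therefore smaller than relative to the sum.

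The neutrophil markers, of which 5 of 8 tested were up-regulated, gave another picture. Relative to them, Clec4e and Clec4d were higher by 1.40 and 1.35, and Clec4n, Clec4a2 and Clec10a were lower, with differences of -1.54, -1.003 and -0.98 (exact two-sided permutation tests, p = 0.1 for each and 0.2 after adjustment over 10 tests). The neutrophil sum rests mostly on Mmp9 and Csf3r, with means of 29.8 and 14.3 CPM in the control group and log2 fold changes of 0.80 and 2.25. S100a9, S100a8 and Cxcr2, which add little to the control sum, had log2 fold changes of 4.70, 4.44 and 4.27, larger than those of Clec4e and Clec4d, so that relative to these markers alone the direction turns (for Cxcr2, whose value was 3.30 without luteolin replicate 2, only with all 6 libraries for Clec4e, which then had 3.78). For the remaining 5 receptor genes the differences from the sum ranged from -0.65 for Clec5a to -0.13 for Clec4a1, and the groups overlapped.

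**Figure D4:**
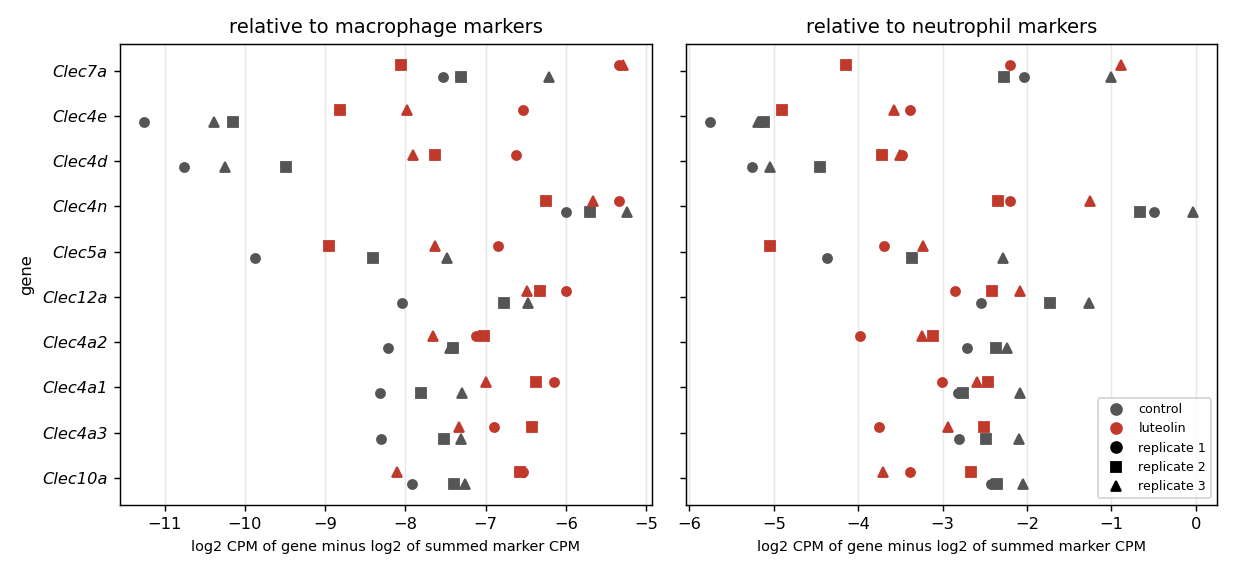
Log2 CPM of each lectin gene minus the log2 of the summed CPM of 9 macrophage markers (left) or 10 neutrophil markers (right), 1 point per library, grey for control and red for luteolin, with the symbol giving the replicate number. Only Clec4e, Clec4d and Clec4a1 have all luteolin points to the right of all control points on the left panel, and only Clec4e and Clec4d do so on the right panel.

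Differences between receptor genes were tested for 7 pairs, each as the change in the difference of 2 log2 CPM values. Clec4e moved further than Clec10a by 2.37 and further than Clec4a3 by 1.996, and Clec4n less than Clec4a1, with a difference of -1.40. The exact two-sided permutation p was 0.1 for each of these pairs, the smallest possible, and 0.233 after Benjamini-Hochberg adjustment over 7 pairs. Clec4e and Clec4d, which work as partners, differed by 0.05 in their change, with single luteolin libraries from -1.19 to 0.09 and control libraries from -0.67 to -0.14 (exact permutation p = 0.9). Inhibitory Clec12a and activating Clec7a differed by 0.04, but the luteolin libraries ran from -1.19 to 1.74 (exact permutation p = 1). For Clec7a against Clec10a and Clec5a against Clec10a the differences were 0.33 and 0.33 (exact permutation p = 0.8 for each). With 3 libraries a group these values do not show that the genes moved alike.

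The signalling chain behind the activating receptors was described with a list of 10 adaptors and kinases. Of these, 5 were up-regulated at the study's threshold and 0 were down-regulated, with a median log2 fold change of 1.00. The 2 that also passed an adjusted p of 0.05 were Syk, the kinase that all activating members use, and Vav1, an exchange factor downstream of it. Syk had a mean ± SD of 110 ± 33.3 CPM under luteolin and 37.0 ± 4.399 CPM in the controls, a log2 fold change of 1.57 (SE 0.24, edgeR adjusted p = 0.0403). Vav1 had the same log2 fold change of 1.57, and Plcg2, a phospholipase that Syk activates, had 1.48. The adaptor chains Fcer1g and Tyrobp, chosen after their values were seen, passed as well, with 1.57 and 1.25. Card9, Bcl10 and Malt1, which join Syk to the NF-κB pathway, did not pass, with log2 fold changes of 0.70, 0.13 and 0.44. Without luteolin replicate 2, the number up-regulated in this list was 2 of 10, with Fcer1g at 0.97, Tyrobp at 0.82 and Plcg2 just short of a fold change of 2, so that this library decided 3 of the 5 calls. For this list and those below, the shares over all genes are 11.3% up-regulated, 1.52% down-regulated and, without luteolin replicate 2, 7.52% up-regulated.

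**Figure D5:**
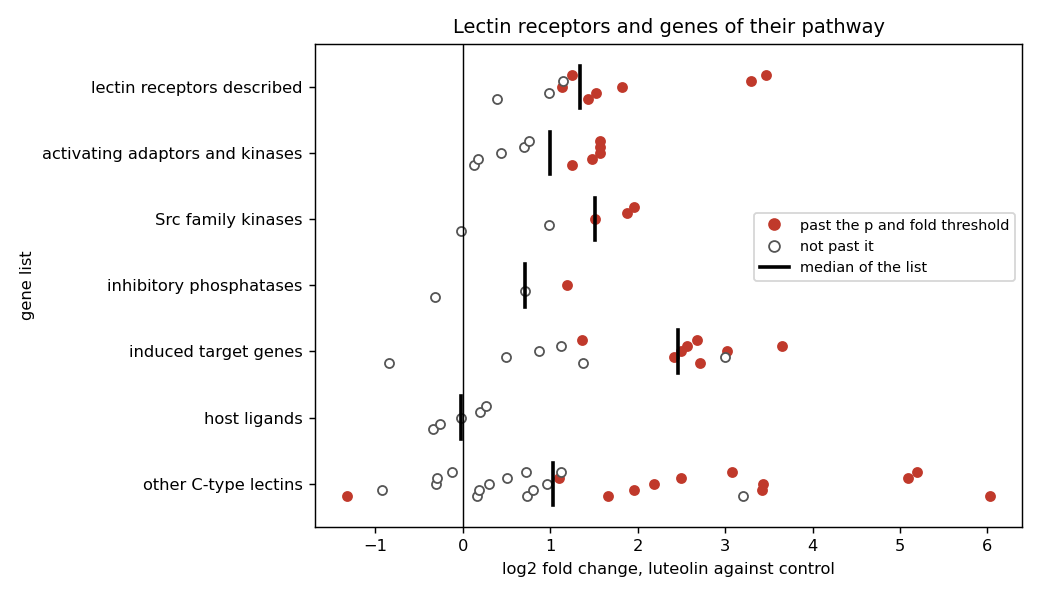
Log2 fold change of the tested genes in 7 lists, luteolin against control, 1 point per gene, red where a gene passed the study's threshold in either direction; the black bar is the median of the list. The medians run from -0.02 for the host ligands to 2.46 for the induced target genes, with 1.34 for the lectin receptors.

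Src family kinases phosphorylate the motifs of these receptors, and 3 of the 5 listed were up-regulated. Fyn rose by 1.51 on the log2 scale (edgeR adjusted p = 0.0403). Lyn had a log2 fold change of 0.99 and fell just short. Fgr, named after its value was seen, rose by 1.88, and by 1.26 without luteolin replicate 2. Without that library 3 of the 5 were still up-regulated. Src itself had a log2 fold change of -0.02. Of the 3 phosphatases recruited by inhibitory receptors, Inpp5d, which encodes SHIP1, rose by 1.19 (edgeR adjusted p = 0.0437). Ptpn6, which encodes SHP-1, had a log2 fold change of 0.71 and did not pass the fold change threshold, and Ptpn11 had -0.32.

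Of 14 genes that signalling by these receptors is known to induce, 8 were up-regulated and 0 down-regulated, with a median log2 fold change of 2.46. Cxcl2, a chemokine for neutrophils, had 102, 158 and 82 counts in the control libraries and 2430, 954 and 878 counts in the luteolin libraries. The luteolin library with the most Cxcl2, replicate 1, was also the one with the most Clec4e. Il6 and Ptgs2 were highest in replicate 1 too. Il10, Il12b, Egr2 and Egr3 were highest in replicate 2, where Clec4e was lowest among the luteolin libraries. A link between Clec4e and these genes was not tested. The log2 fold change of Cxcl2 was 3.65 (SE 0.59, edgeR adjusted p = 0.0437). Il1b rose by 3.02 and Tnf by 2.42, both cytokines of activated myeloid cells. Il23a went the other way with a log2 fold change of -0.84 (edgeR adjusted p = 0.187), within the fold change limit.

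Host molecules that these receptors are known to bind were described with 6 genes. None of the 5 tested genes of this list passed, and the median log2 fold change was -0.02. Sap130, whose product is bound by Mincle, had a mean ± SD of 77.2 ± 2.28 CPM under luteolin and 92.5 ± 10.7 CPM in the controls. Its log2 fold change was -0.26 (SE 0.14, edgeR adjusted p = 0.371). Vim and Anxa5, whose products are bound by dectin-1, had log2 fold changes of 0.26 and -0.34, and Anxa13 had too few counts to be tested.

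Other C-type lectin genes gave a mixed picture. Of 35 listed, 26 were tested, 11 were up-regulated and 1, Mgl2 (named after its value was seen), was down-regulated, with a median log2 fold change of 1.03. Without luteolin replicate 2 the numbers were 9 and 1 of 26. Olr1, a scavenger receptor gene that lies directly beside Clec7a, had 21, 9 and 33 counts in the control libraries and 244, 261 and 203 counts in the luteolin libraries. Its luteolin libraries were close together, unlike those of Clec7a. The log2 fold change of Olr1 was 3.43 (SE 0.59, edgeR adjusted p = 0.0480). Cd209d, a DC-SIGN relative, and Clec3b, which encodes tetranectin, had log2 fold changes of 5.19 and 3.44 with edgeR adjusted p values of 0.0577 and 0.0595. Cd209d was highest in luteolin replicate 2, with 1658 counts against 466 and 88 in replicates 1 and 3. The 9 genes with too few counts to be tested were Clec4a4, Clec4b2, Clec4f, Clec4g, Clec1b, Clec2h, Clec2l, Clec12b and Cd207. Cd207, the Langerhans cell gene, had 42, 855 and 4 counts in the luteolin libraries and at most 5 counts in a control library. Clec4b2 and Clec2h were at 0 in every library, which allows up to 3 read pairs per library (counting error only), and their worth in deposited units is not known.

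Among the markers of cells known to carry these receptors, 2 of 9 macrophage markers, 5 of 8 tested neutrophil markers, 2 of 6 monocyte markers and 4 of 6 dendritic cell markers were up-regulated. Their median log2 fold changes were 0.85, 2.17, 1.32 and 1.46. Over all genes tested, 11.3% were up-regulated and 1.52% down-regulated. The genes with the smallest p were Cd68, Adgre1 and Fcgr1 (1.16, 0.91 and 1.36) for macrophages, S100a9, S100a8 and Cxcr2 (4.70, 4.44 and 4.27) for neutrophils, Plac8, Ly6c2 and F10 (2.36, 1.71 and 0.93) for monocytes, and Itgax, Flt3 and Ccr7 (1.15, 2.31 and 1.77) for dendritic cells. Adgre1 and F10 did not pass the fold change threshold. The other monocyte markers Ccr2, Vcan and Chil3 had log2 fold changes of 0.26, -0.27 and 3.31 and did not pass. Among the other dendritic cell markers, Xcr1 passed with 2.31, and Zbtb46 and Cd86 did not, with -0.33 and 0.91. Without luteolin replicate 2 the log2 fold change was 3.30 for Cxcr2 and 1.07 for Ccr7. Outside the myeloid lists, 7 of 7 T-cell markers, 2 of 4 B-cell, 3 of 3 tested NK-cell, 4 of 5 mast cell, 8 of 9 tested keratinocyte and 0 of 6 hepatoma markers were up-regulated, and 0 were down-regulated. The smallest p belonged to Cd8a, Cd3g and Cd2 for T cells, Cd79b and Cd79a for B cells, Klrb1c, Ncr1 and Klre1 for NK cells, Tpsb2, Mcpt4 and Cma1 for mast cells, Krt14, Trp63 and Krt5 for keratinocytes, and Afp, Glul and Krt18 for hepatoma. Of these genes, only Afp and Krt18 were lower in the luteolin group, with log2 fold changes of -0.58 and -0.22, and Glul had 0.25. Without luteolin replicate 2, the number up-regulated was 4 of 6 for monocyte, 1 of 9 for macrophage, 3 of 6 for dendritic cell and 1 of 4 for B-cell markers. The share over all genes was then 7.52%.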

How the data were processed

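RNA-seq libraries of H22 tumours, 3 from control and 3 from luteolin-treated mice, were analysed. All 6 columns of the deposited table were used, and 0 were left out. The authors deposited whole-number estimated counts per gene symbol and library, not scaled between libraries. The submitters' processing notes name bcl2fastq 2.0, HISAT2, StringTie and DESeq2 and the builds rn6 and mm39, without roles. Annotation and strand setting are not given in the sources used here. Among values between 1 and 40, multiples of 4 made up 44.8%, so 1 unit need not be 1 read pair.

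Counts were compared in R 4.3.3 with edgeR 4.0.16 (TMM, filterByExpr, quasi-likelihood test, no covariates, two-sided), which tested 14963 genes, with Benjamini-Hochberg adjustment over all of them. The call used in the text is the study's (unadjusted p under 0.05, absolute log2 fold change over 1). CPM are counts scaled to the TMM-normalised library total, and log2 CPM have a prior count of 2. Differences between genes and against summed markers were tested over libraries by exact permutation. The Pearson correlation of log2 CPM between replicates was 0.892 to 0.969.

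The members, lists and tests were chosen with earlier results of these data known. Named were all 10 members, the 3 genes of smallest p and the genes not tested of each list, defining markers at or under 3 counts, and the 5 genes nearest in pattern. Some genes that this rule names are not reported here. Promoter sequences are from RefSeq (GRCm38.p6), and exon lengths and shared windows of 50 bases from GENCODE M21. No position was joined to the deposited table. Alternatives were DESeq2 1.42.0, limma 3.58.1 (voom with quality weights), RLE and upper-quartile normalization, other filters on low counts (none, or 10 counts in every library), the replicate block, each library left out, a prior count of 0.5, values divided by 4 and, added after the data were seen, offsets for GC content and gene length. The pipeline was tested on simulated data.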

Additional observations from a re-analysis of the deposited data

How the results depend on the processing

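No log2 fold change of a receptor gene changed sign in any of the 15 alternatives. Of 150 such values, 125 kept their side of the study's threshold, 15 no longer passed it and 10 newly passed it, and with a prior count of 0.5 all 27 differences tested by permutation kept their direction. The number of receptor genes at the study's threshold was 7, and ranged from 4 to 8 with each library left out (4 without control replicate 1 and 8 without control replicate 3, beside 8.58% and 9.57% of all genes). At an adjusted p under 0.05 it was 2 in edgeR, 6 in DESeq2 and 8 in limma's voom, and 0 to 2 with each library left out (0 without any 1 control library or luteolin replicate 1, and 1 without luteolin replicate 3). With offsets for GC content and gene length, 9 of the 10 passed the study's threshold, Clec5a and Clec4a2 in addition, beside 11.7% of all genes. Down-regulated genes over the whole table numbered 227, against 498 in voom and 140 to 305 with each library left out. Total adjusted calls were 228 in edgeR, 1958 in DESeq2, 3197 in voom and 994 with the GC and length offsets. The causes were not tested.

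With the replicate block, 6 receptor genes passed the study's threshold upward, beside 8.64% of all genes. An adjusted p of 0.05 in edgeR was passed by 0 receptor genes and by 35 genes of the table. An unadjusted p under 0.05 was reached by 7 receptor genes and by 2297 of the 14963 genes tested. Libraries with the same number share only that number: the correlation of their deviations from the group means was -0.20, -0.09 and 0.06 for numbers 1, 2 and 3, and 0 of 3 control libraries and 1 of 3 luteolin libraries (replicate 3) correlated best with their own number. Control counts of at most 155 limit the precision for Clec4e and Clec4d.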
